A study of Rattus norvegicus with 23 samples.

Results

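The major histocompatibility complex (MHC) interval of the rat was taken as the genes that begin on chromosome 20 of the Rnor6.0 genome from position 1000000 to position 5500000. The annotation listed 320 such genes. Of these, 150 had at least 10 counts in 5 or more of the 23 libraries, and they are called members here. The same filter kept 16399 of the 32552 genes listed for the whole genome. Among the 170 interval genes left out, 58 had no count in any library and 112 had some. At the edge of the filter, ENSRNOG00000061767 and ENSRNOG00000000478 reached 10 counts in exactly 5 libraries, with at most 17 and 14 counts. Just outside it, 3 genes reached 10 counts in 4 libraries, with at most 12, 16 and 16 counts.

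RNA of the dorsal striatum (dSTR) came from adult wild type male Long Evans rats, with 1 library per rat. The 6 control (CT) rats had self-administered saline and received no footshocks. All other rats had self-administered methamphetamine (METH) at 0.1 mg/kg per infusion, first without and then with footshocks. They went through a pair of footshock phases separated by forced abstinence. Differences from CT rats thus combine METH and footshocks. Tissue was taken after a drug seeking test at the end of a second forced abstinence, which followed the last footshocks. The 6 ASR rats, labeled shock resistant, kept taking METH in both phases. The 5 DSR rats, labeled resurgence shock resistant, gave way to the first footshocks and not to the second, and the 6 AS rats, labeled shock sensitive, reduced their intake in both. The METH groups were thus defined by behavior and not by random assignment. Rats are named here by group and by the code in the sample title, in which Grp7 or Grp8 is a number whose meaning the labels do not give and which is treated as a cohort.

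The MHC, called RT1 in the rat, holds several kinds of genes. Class I genes encode the receptors that show peptides made inside a cell to cytotoxic T cells. Class II genes encode those that show peptides taken up from outside to helper T cells, and the class III genes between them include complement components, tumor necrosis factor and many genes without an immune role. Class I and class II genes vary more between individuals than most genes, are passed on together as haplotypes, and class I genes even differ in number from haplotype to haplotype. Long Evans rats are an outbred stock, so that rats of a group need not carry the same haplotypes. The RefSeq gene table at hand, for the GRCr8 assembly, lists 67 RT1 genes, all on chromosome 20, of which 56 are class I, 11 are class II and 19 of all are pseudogenes.

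The count files give Ensembl identifiers and positions but no gene symbols, and 0 identifiers were shared with that table. Members are therefore called by identifier, with positions on chromosome 20 of Rnor6.0, and which of them encode class I, II or III genes cannot be said here. No genotype of these rats was given in the sources used here. Reads of near-identical class I copies cannot be told apart by counts of uniquely mapped reads, so counts of single members of such a family are uncertain. All reads were mapped to the single Rnor6.0 genome, and whether reads of other haplotypes mapped equally well was not tested. Few counts of a member in a rat are therefore not read as absence of its RNA. The library kit does not mark strand, and 51 members shared exon bases with another gene, 29 of them with a gene on the opposite strand.

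Libraries held 18967015 to 28137676 counts, of which the members took 0.739% to 0.841%. Counts of every pair of libraries differed by more than counting error, so that no library was present in duplicate. Levels were compared between rats as CPM, the counts of a gene per unit of library size scaled with TMM factors, and between genes as CPM per kilobase of exon (RPKM). In bulk tissue, fewer cells of a type and less RNA per cell cannot be told apart.

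The members covered a wide range of levels, and most were not abundant. Their mean level over the 23 rats ran from 0.158 to 209 RPKM, with a median of 5.20 RPKM against 7.83 RPKM for all 16399 genes. There were 54 members above 10 RPKM, or 36% against 43.6% of all genes, and 21 under 1 RPKM, or 14% against 15.4%. The median count over the libraries was over 1000 for 34 members and under 100 for 57. Members were also compact, with a median span of 4885 bases against 19081 bases for all genes, at a median exon length of 1849 against 2256 bases.

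The 3 members of highest level differed in how evenly rats expressed them. ENSRNOG00000061216 (3422461 to 3426371, plus strand) had the highest mean level, 209 RPKM, and stayed between 187 and 258 RPKM in the 23 rats. ENSRNOG00000000774 (1955359 to 1984863, minus strand) followed at 182 RPKM, from 166 to 211. ENSRNOG00000000775 (2004052 to 2014286, plus strand) had a similar mean of 176 RPKM but ran from 82.5 to 244 RPKM. Its coefficient of variation was 26.5%, against 7.34% and 7.88% for the other two. The median coefficient of variation was 17.4% over the members and 14.3% over all genes.

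For some members single rats differed far more than groups did. For each gene the 23 rats were ordered by log2 CPM with a prior count of 2, and the widest gap between neighbors with at least 3 rats on either side was taken. A gene was said to have 2 separate levels where this gap was at least 2-fold. This held for 3 members (2% of 150), against 54 of 16399 genes (0.329%). Each of the 3 passed the count filter only through the rats above its gap, so setting these shares side by side is no test. The 3 members lay within 13782 bases, and their levels parted the rats in the same way. They need not be 3 separate observations. Of all 54 genes with 2 separate levels, these 3 were the only ones to part the rats like this.

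ENSRNOG00000026051 (3135791 to 3140610, plus strand, 5 exon blocks) showed the widest gap, 8.29-fold on the scale with the prior count. It had 73 to 142 counts in 9 rats and 1 to 6 counts in the other 14. The 9 rats were CT Grp7-R5 (6.12 CPM), CT Grp7-R6 (5.15), ASR Grp7-L4 (4.08), ASR Grp7-R4 (3.15), ASR Grp7-R10 (2.71), ASR Grp8-R4 (3.28), DSR Grp8-R1 (3.67), AS Grp7-R2 (4.74) and AS Grp7-R9 (3.53). No other rat exceeded 0.252 CPM, so that no level fell between these ranges. An exon of this member shares 234 bases with ENSRNOG00000058490 on the opposite strand.

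ENSRNOG00000060523 (3134704 to 3135301, minus strand, 1 exon) lies just beside it. The same 9 rats had 40 to 115 counts, or 1.66 to 4.96 CPM, and the other 14 had 0 to 4 counts, with 10 libraries at 0. ENSRNOG00000062036 (3126829 to 3127609, plus strand) had 19 to 70 counts in these 9 rats, or 0.789 to 3.02 CPM, and 0 to 8 counts in the other 14, with 6 libraries at 0. The 9 rats came from every group, with 2 of 6 CT, 4 of 6 ASR, 1 of 5 DSR and 2 of 6 AS rats. They included 7 of the 13 Grp7 rats and 2 of the 10 Grp8 rats.

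Both levels occurred in every group. None of these 3 members had an unadjusted p under 0.05 in any of the 6 comparisons of groups. The p of edgeR's quasi-likelihood test ran from 0.216 to 0.906 for ENSRNOG00000062036, from 0.272 to 0.794 for ENSRNOG00000060523 and from 0.246 to 0.837 for ENSRNOG00000026051. Their log2 fold changes carried standard errors from 1.04 to 1.45. For ENSRNOG00000026051, ASR vs DSR gave a log2 fold change of 1.42 with a standard error of 1.19, where 4 of 6 ASR rats and 1 of 5 DSR rats were at the upper level.

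**Figure D1:**
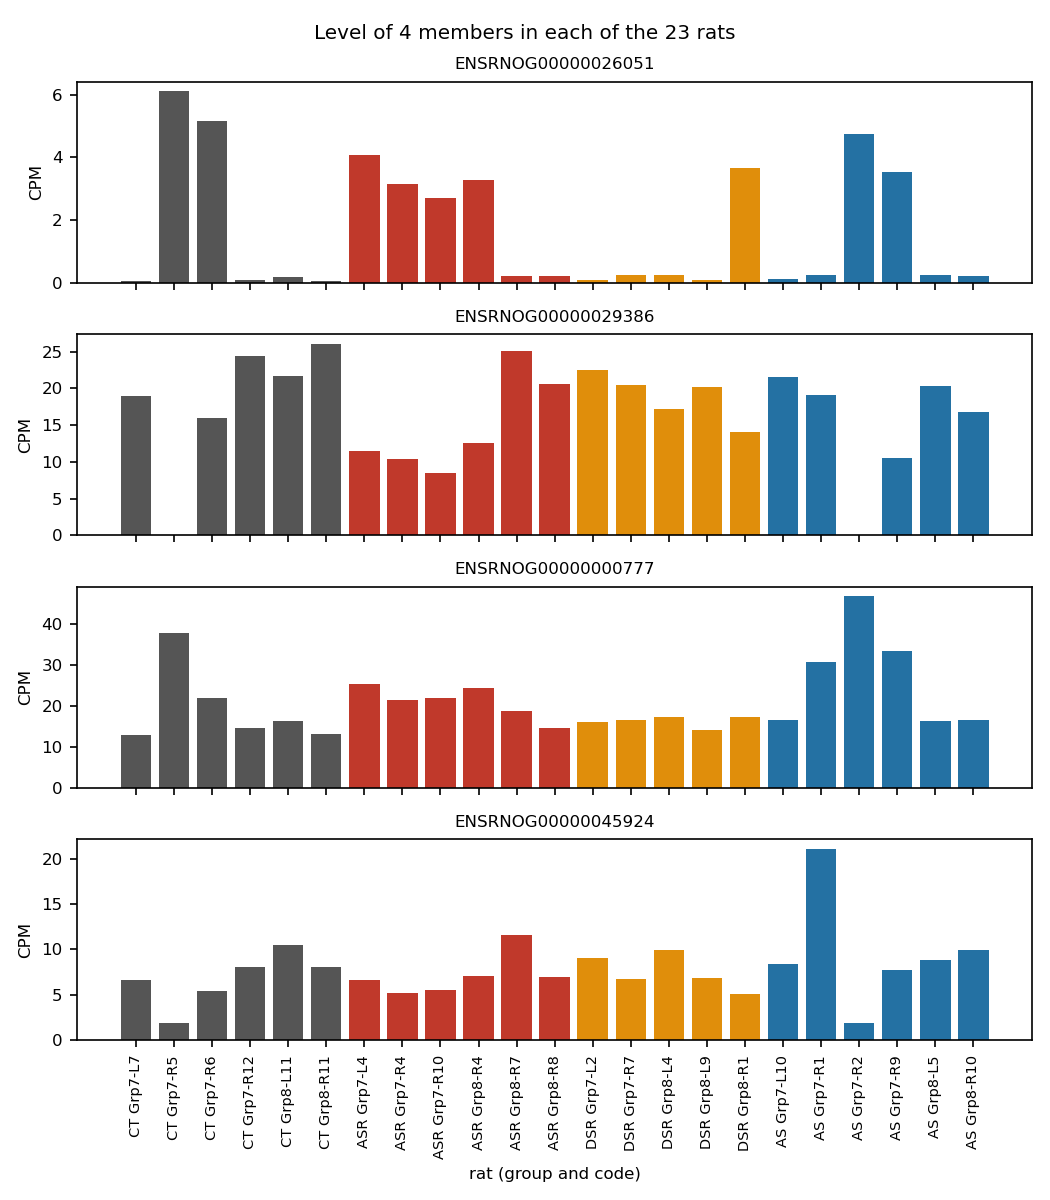
Level in CPM (vertical axes, from 0) of 4 neighboring members in each of the 23 rats, colored by group (gray CT, red ASR, orange DSR, blue AS). ENSRNOG00000026051 was at 2.71 to 6.12 CPM in 9 rats and at most 0.252 CPM in the others, while ENSRNOG00000029386 was nearly without counts in CT Grp7-R5 and AS Grp7-R2.

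A neighboring member showed the opposite order of rats. ENSRNOG00000029386 (3146856 to 3150852, plus strand, 8 exon blocks) was lowest in the same 9 rats. CT Grp7-R5 had 2 counts and AS Grp7-R2 had 1 count. The other 7 of these rats had 228 to 364 counts, or 8.46 to 16.02 CPM, and the remaining 14 rats 16.8 to 26.1 CPM. The levels of this member thus fell into a pair of rats near 0 and 21 rats with at least 228 counts, and within the latter the ranges of the 7 and the 14 rats lay next to each other without overlapping. Only 4 of the 16399 genes (0.0244%) had these 9 rats as their 9 highest or 9 lowest, and all 4 were members, namely this one and the 3 with 2 separate levels. ENSRNOG00000026051 was itself used to define the 9 rats, and the 3 members with 2 separate levels passed the count filter only through those rats. With 8 or more of the 9 rats at one end there were 10 members (6.67%), against 24 of all genes (0.146%).

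CT Grp7-R5 and AS Grp7-R2 stood apart in further members nearby. For ENSRNOG00000032664 (3162039 to 3162939) both had 0 counts, against 4 to 40 counts in the other rats. ENSRNOG00000029001 (3155652 to 3157088) gave 3 counts in CT Grp7-R5 and 4 in AS Grp7-R2, against 23 to 87 in the others. ENSRNOG00000045924 (3226313 to 3233694) was at 1.90 and 1.93 CPM in these rats, lower than in all others, which ranged from 5.08 to 21.1 CPM. They were the lowest for ENSRNOG00000000787 (3242470 to 3249189) as well, with 9 and 4 counts against 29 to 132.

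The same pair of rats was at the upper end of ENSRNOG00000000777 (3176107 to 3179818, plus strand), with 37.7 CPM in CT Grp7-R5 and 46.7 CPM in AS Grp7-R2. AS Grp7-R9 followed at 33.2 CPM and AS Grp7-R1 at 30.6 CPM, and the other 19 rats were between 12.8 and 25.4 CPM. Its neighbor ENSRNOG00000042905 (3189473 to 3197457) had the same 4 rats at its upper end, at 22.9 to 29.7 CPM. AS Grp7-R1 also had the highest level of ENSRNOG00000045924, 21.1 CPM against at most 11.6 CPM elsewhere, and of ENSRNOG00000000787, 6.26 CPM against at most 3.43 CPM. Between them, these members therefore gave more than 2 patterns of rats along one stretch of the interval.

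**Figure D2:**
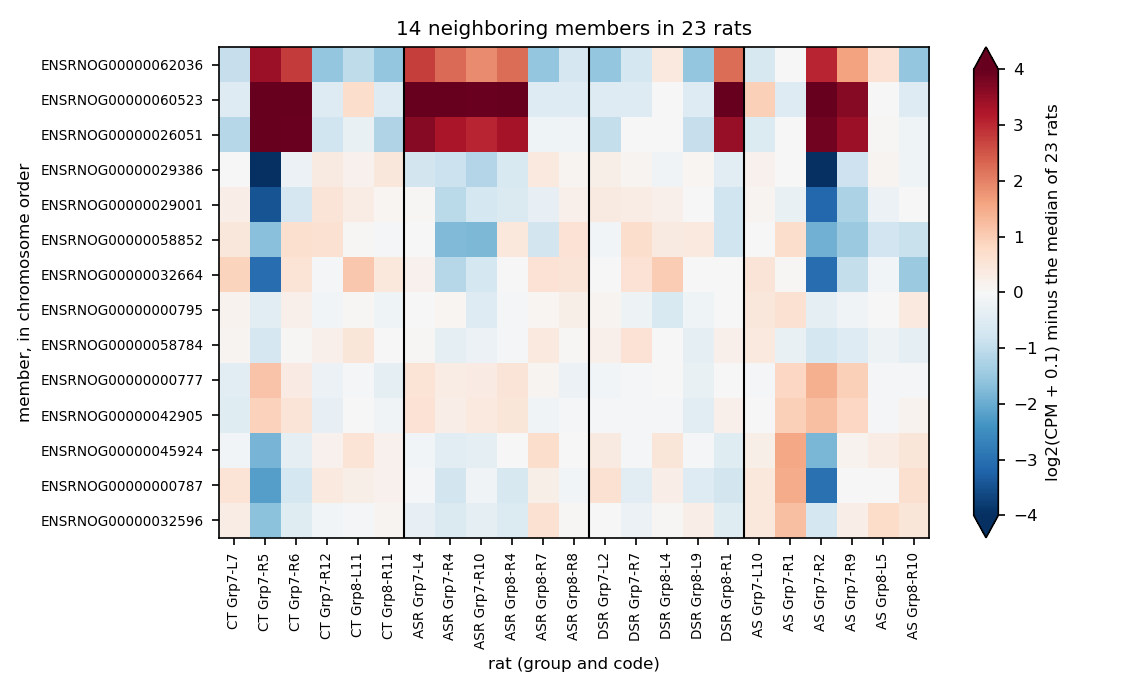
Levels of 14 neighboring members (rows, in chromosome order) in 23 rats (columns, by group), as log2(CPM + 0.1) minus the median of the 23 rats of each member. The first 3 rows were high in the same 9 rats of all 4 groups, and the columns of CT Grp7-R5 and AS Grp7-R2 were low in several of the other rows and high for ENSRNOG00000000777 and ENSRNOG00000042905.

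How far the spread between rats exceeded that of other genes of like level was described by the dispersion of each gene, with group means removed, divided by the trended dispersion of edgeR. The ratio was at least 4 for 15 members (10%), against 4.37% of all genes. The 15 include the 3 members with 2 separate levels, which passed the count filter only through their 9 upper rats. Its median was 0.535 over the members and 0.489 over all genes. Of the 15, 9 lay among 14 neighboring members within 155695 bases, from ENSRNOG00000062036 to ENSRNOG00000032596, a stretch delimited after its values were seen. The other 136 members included 6 (4.41%) with such a ratio, close to the share of all genes. The highest ratios were 70.5 for ENSRNOG00000060523, 36.5 for ENSRNOG00000029386, 27.96 for ENSRNOG00000062036 and 23.4 for ENSRNOG00000026051.

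**Figure D3:**
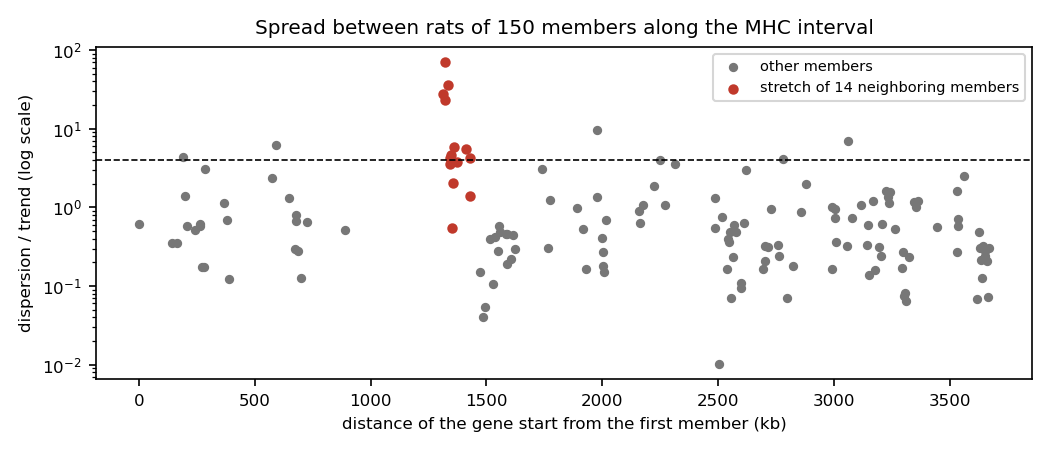
Dispersion divided by its trend (log axis) for the 150 members, against the distance of the gene start from that of the first member in kilobases. The dashed line marks a ratio of 4, and the red points are the 14 neighboring members, of which 9 lie above it.

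The 6 members of high ratio outside this stretch lay farther away, and 1 of them repeated the order of rats seen in it. ENSRNOG00000031065 (2408025 to 2409927) had 2 counts in AS Grp7-R2 and 36 to 158 elsewhere. Its 8 lowest rats, at 0.0939 to 2.74 CPM, were all among the 9 rats named above, while CT Grp7-R6, the remaining one, was at 4.14 CPM. The other 14 rats ranged from 3.54 to 6.89 CPM. ENSRNOG00000047706 (3791407 to 3794027) had 315 counts in CT Grp7-R6 and 379 in ASR Grp8-R4, against 17 to 78 in the other 21 rats. ENSRNOG00000050647 (4877324 to 4879779, minus strand) ranged from 10 counts in AS Grp7-R2 to 278 in CT Grp7-R5 with values spread in between. ENSRNOG00000000451 (4066132 to 4070721) was highest in AS Grp7-R9, at 193 counts, and lowest in CT Grp7-L7, at 8. ENSRNOG00000000878 (4593389 to 4609631) ran from 16 to 165 counts, and the abundant ENSRNOG00000000775 from 130 to 384 CPM. Whether any of these patterns follows inherited haplotypes was not tested, as it needs genotypes.

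Between groups, with all 23 rats in the fit, no member passed an adjusted p of 0.05 in edgeR (quasi-likelihood, Benjamini-Hochberg over all 16399 genes). This count of 0 depended on single rats. In AS vs CT, edgeR gave 19 members (and 1322 of all genes) such an adjusted p without CT Grp7-R5 and 13 (1239 of all) without AS Grp7-L10. In DSR vs AS it gave 9 members (1955 of all genes) without DSR Grp8-L9 and 3 (823 of all) without AS Grp7-L10. Counts of members at an unadjusted p under 0.05, and of those among them with at least 1.5-fold change, were therefore read against the same share among all genes. The 6 comparisons share libraries, those of the AS rats being used in 3 of them, and are given side by side. At the same adjusted p, DESeq2 called 10 of the 142 members it gave one in AS vs CT, against 5.6% of all such genes, and 2 of 121 in DSR vs AS, against 5.14%. It called 0 members in the other 4 comparisons, where it called 0.0061% of all genes in ASR vs DSR and none elsewhere.

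In AS vs CT, 38 members (25.3%) had an unadjusted p under 0.05, 17 higher and 21 lower in AS rats, against 21.6% of all genes (8.13% higher and 13.4% lower). A change of at least 1.5-fold besides was seen in 8 members, against 4.52% of all genes. ENSRNOG00000000443 (4302347 to 4508214, minus strand) had the smallest p. Its lowest, median and highest levels were 7.42, 10.9 and 12.9 CPM in AS rats and 5.23, 7.01 and 9.27 CPM in CT rats, and the groups overlapped. The means were 10.7 ± 2.01 CPM (SD, n = 6) and 7.10 ± 1.42 CPM (SD, n = 6), and the log2 fold change was 0.58 (standard error 0.13, edgeR adjusted p = 0.0585, two-sided exact permutation p = 0.0130). It was among the 10 members called by DESeq2, with an adjusted p of 0.00619.

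ENSRNOG00000039744 (4673658 to 4935887, minus strand) was at 24.0 ± 2.72 CPM (SD, n = 6) in AS rats and 18.2 ± 3.79 CPM (SD, n = 6) in CT rats (log2 fold change 0.40, edgeR adjusted p = 0.0704). Both it and ENSRNOG00000000443 span over 100000 bases, as 4 of the 150 members do, and share exon bases with other genes on the same strand. Of these 4 members, 3 were higher and 0 lower in AS rats at an unadjusted p under 0.05. Among all genes of 100000 bases or more, 6.42% were higher and 21.1% lower. Of the 4 members, ENSRNOG00000050183, ENSRNOG00000039744 and ENSRNOG00000031090 cover overlapping positions on the same strand. The 4 are thus not independent, and their count is no test. ENSRNOG00000025806 (3299730 to 3307673, plus strand) was slightly lower, at 48.1 ± 1.55 CPM (SD, n = 6) in AS rats against 52.8 ± 2.15 CPM (SD, n = 6) in CT rats (log2 fold change -0.13, edgeR adjusted p = 0.0721). Without CT Grp8-L11 the count of members fell to 25 (16.7%), and the share of all genes to 14.8%. Members higher in AS rats outnumbered lower ones in 8 of the 23 runs with a rat left out, and lower ones outnumbered higher in 15. Without CT Grp7-R5 there were 27 higher and 17 lower, and 52.9% of all genes called were lower.

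In DSR vs AS, 35 members (23.3%) had an unadjusted p under 0.05, against 25.2% of all genes. Of these members 29 were lower and 6 higher in DSR rats (19.3% and 4%), whereas 10.8% of all genes were lower and 14.4% higher. A change of at least 1.5-fold besides was seen in 7 members, against 5.26% of all genes. The median log2 fold change of the members was -0.10, and that of all genes 0.01. In all, 102 of the 150 members were below 0, against 48.3% of all genes. Gene span moved with this direction. Among all genes under 20000 bases, 12.6% were lower and 8.99% higher, with a median of -0.02, whereas among genes of 100000 bases or more 5.86% were lower and 28.8% higher. Of the 134 members under 20000 bases, 22 were lower and 5 higher, with a median of -0.09. The part of gene span in the members' direction was not tested.

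ENSRNOG00000000459 (3973420 to 3978845, minus strand) had the smallest p in DSR vs AS. The DSR rats were at 2.28, 3.06, 3.06, 3.34 and 4.42 CPM, and the lowest, median and highest AS levels were 4.02, 4.97 and 7.19 CPM. A single DSR rat thus lay within the AS range. The log2 fold change was -0.73 (standard error 0.22, edgeR adjusted p = 0.0972, two-sided exact permutation p = 0.0130). ENSRNOG00000030712 (5374985 to 5378539, plus strand) was at 19.7 ± 3.05 CPM (SD, n = 5) in DSR rats and 29.3 ± 6.85 CPM (SD, n = 6) in AS rats (log2 fold change -0.57, edgeR adjusted p = 0.0994). These were the 2 members that DESeq2 called. Without DSR Grp7-R7 the count of members fell to 23 (15.3%), and the share of all genes to 14.5%. Lower members outnumbered higher ones whichever of the 23 rats was left out.

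**Figure D4:**
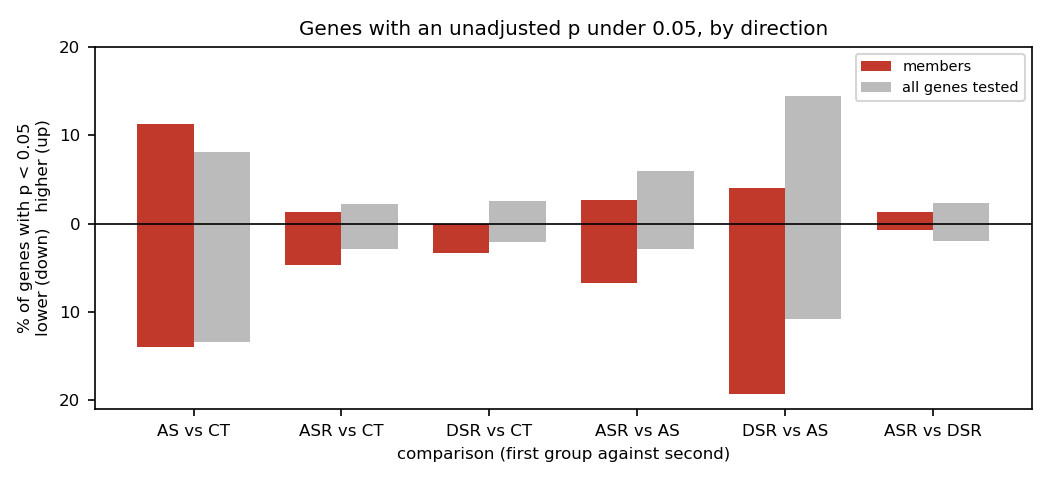
Percent of the 150 members (red) and of all 16399 genes (gray) that had an unadjusted p under 0.05, by comparison, with genes higher in the first group above 0 and lower ones below it. In DSR vs AS 19.3% of the members and 10.8% of all genes were lower, and 4% and 14.4% were higher.

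In ASR vs AS, 14 members (9.33%) had an unadjusted p under 0.05, 4 higher and 10 lower in ASR rats, against 8.89% of all genes (6.01% higher and 2.88% lower), and 4 were changed at least 1.5-fold, against 1.87%. Lower members outnumbered higher ones in 21 of the 23 runs with a rat left out. Without ASR Grp8-R7 there were 6 higher and 5 lower, and 35.2% of all genes called were lower. Without ASR Grp7-R10 there were 6 and 6 (29.2% of all genes called were lower), and without AS Grp7-R1 3 and 4 (32.2%). Gene span moved with direction here too, with 4.57% higher and 3.57% lower among all genes under 20000 bases and 11% and 1.4% among those of 100000 bases or more, and its part in the members' direction was not tested. ENSRNOG00000040052 (2076267 to 2081885, plus strand) was higher, at 1.497 ± 0.237 CPM (SD, n = 6) against 0.860 ± 0.359 CPM (SD, n = 6) in AS rats, on 10 to 44 counts per library (log2 fold change 0.79, edgeR adjusted p = 0.559). ENSRNOG00000000812 (3364814 to 3368923, plus strand) was at 23.3 ± 2.01 CPM (SD, n = 6) against 20.2 ± 1.98 CPM (SD, n = 6), a log2 fold change of 0.20 with the same adjusted p of edgeR. The abundant ENSRNOG00000000463 (3830164 to 3859018, plus strand) was lower, at 417.1 ± 21.0 CPM (SD, n = 6) against 487.8 ± 41.8 CPM (SD, n = 6) in AS rats (log2 fold change -0.23, standard error 0.09). Its groups overlapped, with ASR rats at 394 to 452 CPM and AS rats at 420.1 to 527 CPM.

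In ASR vs CT, 9 members (6%) had an unadjusted p under 0.05, 2 higher and 7 lower in ASR rats, against 4.99% of all genes (2.18% higher and 2.82% lower), and 3 were changed at least 1.5-fold, against 1.21%. Lower members outnumbered higher ones in 22 of the 23 runs with a rat left out. Without CT Grp7-R5, 7 members were higher and 6 lower, and 49.3% of all genes called were lower. ENSRNOG00000050647, one of the members of wide spread described above, was lower, with 1.37 ± 0.827 CPM (SD, n = 6) against 5.56 ± 4.35 CPM (SD, n = 6) in CT rats. Its log2 fold change was -2.01 with a standard error of 0.59 (edgeR adjusted p = 0.942, two-sided exact permutation p = 0.0606), and CT rats alone ran from 0.528 to 12.0 CPM. ENSRNOG00000022107 (2057689 to 2079467, plus strand) did not overlap between the groups. CT rats were at 0.966, 1.14 and 1.41 CPM (lowest, median and highest) and ASR rats at 0.198, 0.690 and 0.817 CPM, on 4 to 32 counts per library. The log2 fold change was -0.86 (standard error 0.30, edgeR adjusted p = 0.942), and the two-sided exact permutation p of 0.00217 is the smallest that 6 against 6 rats can give. In AS vs CT it was among the 10 members called by DESeq2 (log2 fold change -1.09, adjusted p = 0.0238). It shares exon bases with ENSRNOG00000040052 on the same strand and with ENSRNOG00000000778 on the other, so that reads of these 3 members may be assigned to none or to the wrong one.

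In DSR vs CT, 5 members (3.33%) had an unadjusted p under 0.05, all lower in DSR rats, against 4.63% of all genes (2.53% higher and 2.1% lower), and 2 were changed at least 1.5-fold, against 0.793%. ENSRNOG00000000431 (4414276 to 4422283, plus strand) was at 97.9, 100.7, 102.9, 105.3 and 105.6 CPM in the DSR rats and at 108.7, 110.1 and 114.5 CPM (lowest, median and highest) in CT rats, without overlap. This was a small difference, of -0.11 on the log2 scale (standard error 0.04, edgeR adjusted p = 0.979). ENSRNOG00000032942 (4610995 to 4615247, plus strand) was at 21.9 ± 1.15 CPM (SD, n = 5) against 24.1 ± 1.79 CPM (SD, n = 6). Of all members, 117 of 150 had a log2 fold change below 0 here, with a median of -0.07, against 50.7% of all genes. The part of gene span in this direction was not tested. The same DSR libraries enter DSR vs AS, so the lower members there are not a separate observation.

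In ASR vs DSR, 3 members (2%) had an unadjusted p under 0.05, 2 higher and 1 lower in ASR rats, against 4.32% of all genes (2.37% higher and 1.95% lower), and 1 was changed at least 1.5-fold, against 0.878%. ENSRNOG00000058678 (4964125 to 4966710, minus strand) did not overlap between the groups. The DSR rats had 0.433, 0.438, 0.685, 0.728 and 0.994 CPM and the ASR rats 0.0389, 0.315 and 0.425 CPM (lowest, median and highest), on 1 to 25 counts per library. The log2 fold change was -1.15 (standard error 0.37, edgeR adjusted p = 0.847). It shares 357 exon bases with ENSRNOG00000047966 on the opposite strand. ENSRNOG00000022730 (2014170 to 2020537, minus strand) was higher in ASR rats, at 32.3 ± 3.40 CPM (SD, n = 6) against 26.1 ± 4.16 CPM (SD, n = 5), as was ENSRNOG00000032813 (3404711 to 3419831, minus strand), at 19.8 ± 1.60 CPM (SD, n = 6) against 17.2 ± 2.48 CPM (SD, n = 5).

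**Figure D5:**
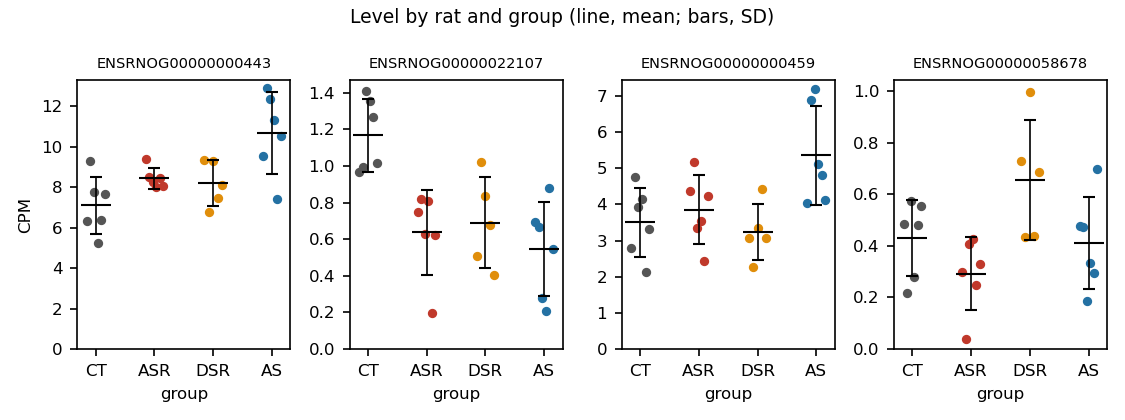
Level in CPM of 4 members in each rat by group, with the mean (line) and SD (bars). ENSRNOG00000022107 was at 0.966 CPM or more in every CT rat and at 0.817 CPM or less in every ASR rat, while the groups overlapped for ENSRNOG00000000443 in AS vs CT and for ENSRNOG00000000459 in DSR vs AS.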

How the data were processed

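Per the labels, 1 library was made from the dSTR of each of 23 rats (poly(A) RNA, NEBNext Ultra II RNA kit, paired reads). The authors used Trimmomatic 0.36 for trimming, STAR 2.5.2b for mapping to Rnor6.0, and featureCounts of Subread 1.5.2, which counted uniquely mapped reads over the exons of Ensembl genes. The deposited counts are whole numbers of reads that were not normalized. The strand setting of the counting is not given in the sources used here.

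Groups were taken from the labels. TMM factors, CPM, RPKM and quasi-likelihood tests were computed in R 4.3.3 with edgeR 4.0.16 on the 16399 genes with at least 10 counts in 5 or more libraries, in one fit of the 4 groups with 19 residual degrees of freedom. Benjamini-Hochberg adjustment ran over all genes tested. Single members were tested by two-sided exact permutation of log2 CPM (prior count 2). Alternatives were DESeq2 1.42.0, RLE factors, filterByExpr, no count filter, cohort as a covariate, only the 2 groups compared, other limits on gap, rats and ratio, and each rat left out. With 18967015 to 28137676 counts per library, 57 members had a median under 100 counts, so that their values carry counting error besides differences between rats.

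The fit was also run on simulated counts with known changes, drawn for each gene separately at the trended dispersion. Dispersion far above the trend was not simulated, so that run does not bear on members of wide spread. The members and lists were chosen with earlier results of these data known. The rule for naming genes took, in each comparison, up to 3 members of smallest p, at most 2 in each direction, then those of widest gap and highest RPKM. Lists of MHC classes, pathways and cell type markers, and the check of the tissue label, need gene symbols and were not applied. No sequence is shown, since no identifier could be matched to the sequence tables.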

Additional observations from a re-analysis of the deposited data

Results flagged for a closer look

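For 27 members named above, or of widest gap, the highest and the lowest rat of each group were compared with the rest of that group by Dixon's test at the 95% level. Of 108 sets of values, 12 held a rat that stood apart. Chance alone flags about 1 in 20 sets, and members of widest gap were chosen for such differences between rats, so the number of flags is no test. No explanation was tested for any of them.

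Of these, 5 were rats at the upper level of the members with 2 separate levels. DSR Grp8-R1 was the only DSR rat at that level, with 3.67 CPM of ENSRNOG00000026051 against at most 0.239 CPM in the other DSR rats, 3.10 CPM of ENSRNOG00000060523 and 1.25 CPM of ENSRNOG00000062036. AS Grp7-R2 had 4.84 CPM of ENSRNOG00000060523 and 2.30 CPM of ENSRNOG00000062036, above AS Grp7-R9 with 1.66 and 0.789 CPM.

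The other 7 were single rats in other members. ASR Grp7-L4 had 9.40 CPM of ENSRNOG00000000443 (8.00 to 8.49 in the other ASR rats) and 55.7 CPM of ENSRNOG00000025806 (49.3 to 50.8). ASR Grp8-R7 had 0.198 CPM of ENSRNOG00000022107, on 4 counts, against 0.621 to 0.817 CPM. CT Grp7-R5 had 114.5 CPM of ENSRNOG00000000431 against 108.7 to 110.4. AS Grp7-L10 had 24.1 CPM of ENSRNOG00000000812 against 18.5 to 20.2, and 462.5 CPM of ENSRNOG00000061216 against 402.6 to 425. AS Grp8-L5 had 0.922 CPM of ENSRNOG00000000843, on 22 counts, against 0.597 to 0.712 CPM in the other AS rats.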

How the results depend on the processing

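The log2 fold changes of the 15 pairs of a member and a comparison that the naming rule chose kept their sign in every alternative run. Of their values, 86 kept their side of an unadjusted p of 0.05 under other tools, scalings, filters and samples and 4 lost it, and 329 kept and 16 lost it when a rat was left out. All losses were in ENSRNOG00000032942, ENSRNOG00000022730 and ENSRNOG00000032813. With only the 2 groups compared in the fit, 2 members (1.33%) had p under 0.05 in DSR vs CT, against 3.52% of all genes. In ASR vs DSR there were 5 (3.33%), against 4.9%. With filterByExpr, AS vs CT gave 18 higher and 13 lower members in place of 17 and 21, and the share lower among all genes called was 55% in place of 62.3%.

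For AS vs CT, edgeR also gave 1 member an adjusted p below 0.05 in further runs. These were without DSR Grp7-R7 (136 of all genes), without DSR Grp8-L9 (314 of all) and without AS Grp8-L5 (8 of all). Leaving out each rat changed the count of members with an unadjusted p under 0.05, and the share of all genes with such a p moved too. AS vs CT gave 25 members without CT Grp8-L11 (16.7%, against 14.8% of all genes) to 45 without AS Grp7-L10 (30% against 25%). DSR vs AS gave 23 without DSR Grp7-R7 (15.3% against 14.5%) to 45 without DSR Grp8-L9 (30% against 32.1%). ASR vs AS gave 7 without AS Grp7-R1 (4.67% against 6.81%) to 21 without AS Grp7-L10 (14% against 13.5%). It gave 8 without ASR Grp8-R4 (5.33% against 6.32%). ASR vs CT gave 4 to 13 members, with 13 without CT Grp7-R5 (8.67% against 7.74% of all genes). There were 4 (2.67%) without CT Grp8-L11 or ASR Grp7-R4, against 4.05% and 3.55% of all genes. There were 5 (3.33%) without CT Grp7-R6 or ASR Grp8-R7, against 4.57% and 5.41%. DSR vs CT gave 3 members (2%) without CT Grp7-R5, CT Grp8-R11 or DSR Grp7-L2, against 3.84%, 3.79% and 4.4% of all genes. It gave up to 13, without CT Grp7-R12 (8.67% against 5.53%), and 10 without CT Grp8-L11 (6.67% against 7.73%). Without CT Grp7-L7 or DSR Grp8-R1 it gave 9 (6%), against 5.94% and 5.37%. ASR vs DSR gave 1 member without DSR Grp7-R7 (0.667%, against 2.18% of all genes) to 11 without DSR Grp8-L9 (7.33% against 11.3%). It gave 7 (4.67%) without CT Grp8-L11 or ASR Grp8-R4, against 5.4% and 5.17%, and 6 without DSR Grp8-L4 (4% against 3.69%). It gave 5 (3.33%) without CT Grp7-R5, CT Grp7-R6, DSR Grp8-R1, ASR Grp7-L4, ASR Grp8-R7 or ASR Grp8-R8. The shares of all genes in those runs were 3.48% to 8.21%. The cause was not tested.

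Members with 2 separate levels numbered 3 to 4 when a rat was left out, 7 with a gap of 1.5-fold and 9 with 2 rats on either side. The Grp8 rats alone gave 1 such member but include only 2 of the 9 upper rats. With 3 rats asked for on either side, the split of the 9 rats could not be called there. That count therefore says nothing about this split. Members with a dispersion ratio of at least 4 numbered 10 (without AS Grp7-R2) to 16, and 24 had a ratio of at least 2. Shares of all genes at these other limits are not given here, so these counts are not set against other genes. No paired analysis was possible because no rat code is shared between groups.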
